A study of Mus musculus with 20 samples.

Results

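The NME genes were followed in RNA-seq of the hippocampus and neocortex of miR-324-null and WT mice. They comprised Nme1, Nme2, Nme3, Nme4, Nme5, Nme6 and Nme7, together with Gm20390, an annotated gene that overlaps both Nme1 and Nme2 and joins their exons in a single transcript. These 8 genes, of 35580 genes in the data, were represented by 42 transcripts, and their levels were obtained by adding the estimated counts or TPM (a level scaled to depth and to transcript length) of all transcripts of a gene. The family was chosen by the counts of Nme1, Nme2 and Gm20390, which had already been seen to differ between the genotypes in these same libraries. The genotype values of all 8 genes are therefore given as a description, without a test, whereas the difference between the tissues was tested.

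The miR-324-null line carried a CRISPR/Cas9 deletion at Mir324 and was a global, not a tissue-restricted, knockout. The 2 lines, miR-324-null and WT, descend from heterozygous parents; the strain label of all samples was C57BL/6J, to which the line had been backcrossed, although CBA/ca had contributed to its founders besides C57BL/6. Animals of all groups were males of 13.5 months. Each of the 4 groups (WT hippocampus, miR-324-null hippocampus, WT neocortex and miR-324-null neocortex) held 5 samples, 20 in all, with 12752439 to 19617765 estimated counts per sample. The labels called the second tissue cerebral cortex, and did not say whether a hippocampus and a neocortex sample with the same number came from the same mouse, so p-values measure the spread between these samples.

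NME proteins of the first group, encoded by Nme1 to Nme4, are nucleoside diphosphate kinases, which pass the terminal phosphate of ATP to other nucleoside diphosphates through a phosphorylated histidine and so maintain GTP, CTP, UTP and the deoxynucleotide pools. NME1 and NME2 are the abundant cytosolic subunits and assemble into mixed hexamers. NME3 and NME4 are associated with mitochondria, and NME5 and NME7 are more divergent proteins known from cilia and flagella. A readthrough transcript arises when transcription of a gene continues into the next gene on the same strand and splicing joins exons of both.

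The tissue labels held in marker genes. All 9 hippocampal markers, Prox1 and C1ql2 among them, were higher in every hippocampus sample than in every neocortex sample, and 7 of 8 neocortical markers, such as Rorb and Cux2, were higher in every neocortex sample. Choroid plexus markers summed to 40.7 to 4533 CPM (the counts-per-million level, made from estimated counts scaled by TMM) in WT hippocampus, 51.2 to 3885 in miR-324-null hippocampus, 15.9 to 53.6 in WT neocortex and 22.5 to 805 in miR-324-null neocortex. Striatal markers summed to 121 to 331 CPM in WT neocortex and 206 to 509 CPM in miR-324-null neocortex, against 60.6 to 105 in the hippocampus groups. No marker list had a gene at 0 in every sample. The part of these cell types in the values given here was not tested.

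Nme1 and Nme2 are neighbours on the minus strand of mouse chromosome 11 (GRCm38). Nme1 spans chr11:93956979-93968521 and Nme2 spans chr11:93949814-93956259, with 719 bases between them. Gm20390 spans chr11:93949819-93968293, and its only transcript in the data, Gm20390-201, has 991 bases in 8 exons. Its first 4 exons lie on Nme1 exons and its last 4 on Nme2 exons. The annotated coding sequence of Gm20390 has 267 codons, against 152 codons each for Nme1 and Nme2. Mir324 is on the same chromosome, 23.9 Mb away.

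**Figure D1:**
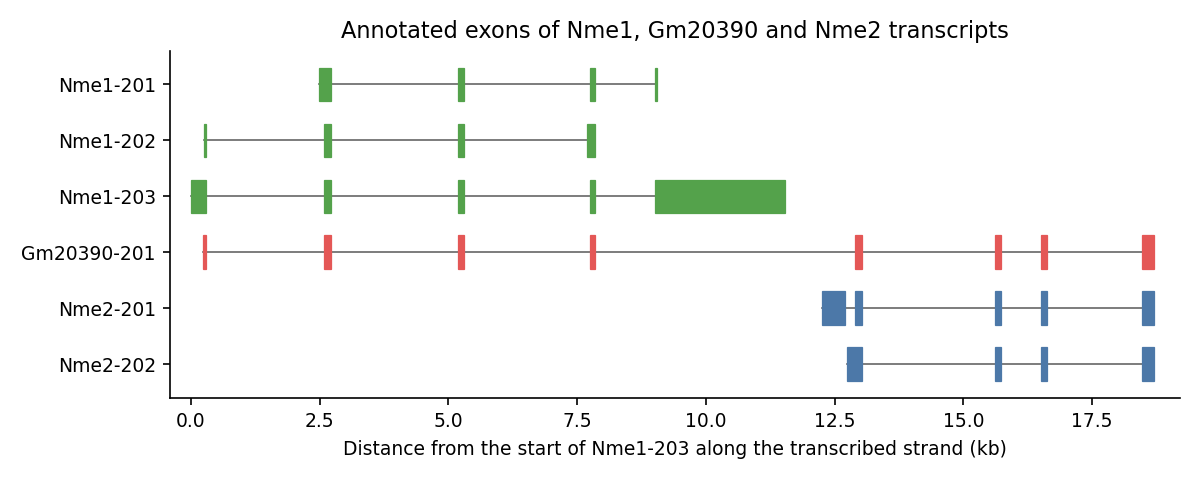
Exons (boxes) and introns (lines) of the 6 annotated transcripts of Nme1 (green), Gm20390 (red) and Nme2 (blue), drawn to scale against the distance in kb from the start of Nme1-203 along the transcribed strand. Gm20390-201 has 8 exons, the first 4 placed on Nme1 exons and the last 4 on Nme2 exons, and skips the long final exon of Nme1-203.

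The junction at which Gm20390-201 leaves Nme1 is shown next to the junction that Nme1-203, the long Nme1 transcript, has at the same place, because it is where these transcripts part. Both runs are 55 bases from the transcribed strand, from the GENCODE M21 transcripts (GRCm38). The lower-case part is the shared end of exon 4 of Gm20390-201 (chr11:93960668-93960695), and capitals mark the first 27 bases of the next exon, which lies at chr11:93955598-93955624, in the second exon of Nme2-201, for Gm20390-201 and at chr11:93959487-93959513, in the final exon of Nme1, for Nme1-203.
Gm20390-201: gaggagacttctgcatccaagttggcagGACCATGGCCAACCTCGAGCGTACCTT
Nme1-203: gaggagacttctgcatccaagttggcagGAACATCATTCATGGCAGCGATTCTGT

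The coding sequences of Nme1 and Nme2 are alike. They share 366 of 456 aligned bases (80.3%), and the longest identical run is 29 bases, shorter than the 31 bases on which kallisto, the program that assigned the reads, matches by default. Coding bases 31 to 150, counted from the A of the start codon, are given for both, with the 22 differing bases in capitals.
Nme1: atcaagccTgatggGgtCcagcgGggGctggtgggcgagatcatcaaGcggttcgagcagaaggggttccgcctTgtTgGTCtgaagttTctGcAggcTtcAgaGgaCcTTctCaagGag
Nme2: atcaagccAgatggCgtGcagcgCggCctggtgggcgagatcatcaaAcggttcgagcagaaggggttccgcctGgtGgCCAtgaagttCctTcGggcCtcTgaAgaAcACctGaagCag

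Gm20390-201, in contrast, is almost wholly made of sequence that Nme1 and Nme2 transcripts also hold. Of its 961 31-base words, 25 (2.60%) were found in no other annotated transcript of the data. Among the Nme1 transcripts, 68.7% of the words of Nme1-201, 80.6% of those of Nme1-202 and 12.4% of those of Nme1-203 were also in Gm20390-201. The shares were 55.4% for Nme2-201 and 77.6% for Nme2-202. Reads from the shared words are divided among these transcripts by estimation, so each of the 3 genes is uncertain on its own. Of the 546 words that Gm20390-201 shares with Nme2, 331 recur in 4 processed retrocopies elsewhere in the genome, to which at most 4 estimated counts were assigned in any sample.

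Gm20390 was the member with the largest difference between the genotypes, and the difference was nearly that between presence and absence. In the hippocampus of miR-324-null mice its level was 68.8, 78.4, 66.1, 55.3 and 68.3 CPM (67.4 ± 8.22, SD, n = 5). In WT hippocampus it was at 0 in 4 samples and at 0.944 CPM (12 estimated counts) in replicate 4. The groups did not overlap, and every miR-324-null sample stood far above the single WT sample with an estimated count above 0.

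The neocortex gave the same picture in separate libraries of the same lines. Gm20390 was at 55.6, 68.8, 73.0, 65.1 and 65.0 CPM in miR-324-null neocortex (65.5 ± 6.44, SD, n = 5). In WT neocortex it was at 0 in 4 samples and at 1.16 CPM (16 estimated counts) in replicate 2. The fitted log2 fold changes, 8.58 (SE 0.40) in hippocampus and 8.17 (SE 0.37) in neocortex, depended on those 2 WT samples. Against a floor of 3 counts in each of the other WT libraries, the miR-324-null mean was at least 332-fold higher in hippocampus and at least 320-fold higher in neocortex. With the WT sample above 0 included at its own value, the bounds were 192-fold and 166-fold, and the ratios to that sample alone were 71.4 and 56.6.

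Nme2, the NME2 subunit gene, was lower in miR-324-null samples. Hippocampal levels were 63.8, 63.9, 63.5, 54.2 and 60.5 CPM in WT mice and 43.7, 48.2, 33.3, 37.2 and 34.5 CPM in miR-324-null mice. No miR-324-null sample reached the lowest WT sample, and the log2 fold change was -0.64 (SE 0.10). Neocortical levels were 50.7, 53.5, 50.2, 51.6 and 51.8 CPM in WT mice and 28.9, 18.8, 18.0, 16.4 and 19.96 CPM in miR-324-null mice. The neocortical groups were further apart, with a log2 fold change of -1.34 (SE 0.12), and replicate 1 was the highest of the miR-324-null samples.

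Nme1, the NME1 subunit gene and the most abundant member in WT samples, was also lower, with a smaller log2 fold change than Nme2 on the count scale. Hippocampal levels were 121, 109, 115, 110 and 130 CPM in WT mice and 107, 115, 87.8, 88.3 and 86.7 CPM in miR-324-null mice. On this count scale the hippocampal groups overlapped, since miR-324-null replicate 2 lay above 2 of the WT samples, and the log2 fold change was -0.27 (SE 0.09). Per length they did not overlap, at 231 to 267 TPM in WT hippocampus and 121 to 154 TPM in that of miR-324-null mice. Neocortical levels were 123, 126, 121, 122 and 132 CPM in WT mice and 95.7, 85.5, 87.3, 84.3 and 99.3 CPM in miR-324-null mice. Here the groups did not overlap, and the log2 fold change was -0.46 (SE 0.05).

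The transcripts of Nme1 and Nme2 did not share the difference evenly. The log2 fold changes above are on counts, which weight a transcript by its length, and the transcript levels are therefore given as TPM. Nme1-201, the short Nme1 transcript, had 192, 188, 195, 188 and 214 TPM in WT hippocampus and 103, 105, 98.3, 79.1 and 90.7 TPM in miR-324-null hippocampus. In neocortex it had 211, 197, 220, 213 and 230 TPM in WT mice and 94.2, 82.8, 69.1, 87.5 and 111 TPM in miR-324-null mice. The groups were clearly apart in both tissues.

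Nme1-203, which has the long last exon and shares the smallest part of its sequence with Gm20390-201, differed little. Its means were 42.9 ± 2.95 TPM in WT mice and 42.1 ± 4.53 TPM in miR-324-null hippocampus (SD, n = 5). They were 46.2 ± 1.05 TPM in WT mice and 41.8 ± 1.98 TPM in miR-324-null neocortex. The hippocampal groups overlapped, and the neocortical groups did not, by a narrow margin (45.4 TPM for the lowest WT sample and 44.2 TPM for the highest miR-324-null sample). Nme1-202 was rare, at 4.03 ± 1.48 and 0.952 ± 0.641 TPM in WT mice and miR-324-null hippocampus and at 3.19 ± 0.826 and 0.363 ± 0.510 TPM in neocortex.

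Both Nme2 transcripts share their later exons with Gm20390-201 and differ at their 5′ end. Nme2-202 had 148, 140, 149, 129 and 135 TPM in WT hippocampus and 78.3, 74.8, 52.5, 67.1 and 63.3 TPM in miR-324-null hippocampus. In neocortex it had 127, 119, 126, 119 and 112 TPM in WT mice and 36.6, 12.0, 8.63, 9.93 and 13.7 TPM in miR-324-null mice. The miR-324-null neocortex thus held 4 samples close together and replicate 1 apart from them. Nme2-201 went the other way, at 27.1 ± 4.24 TPM in WT hippocampus and 32.7 ± 5.41 TPM in that of miR-324-null mice, where the groups overlapped, and at 23.1 ± 2.32 and 31.1 ± 1.74 TPM in neocortex, where they did not (19.9 to 25.9 and 28.1 to 32.4 TPM). Nme2-202 made up 77.3% ± 3.13 of Nme2 counts in WT hippocampus and 57.5% ± 4.63 in miR-324-null hippocampus, and 77.5% ± 2.51 and 23.8% ± 10.9 in neocortex (SD, n = 5).

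**Figure D2:**
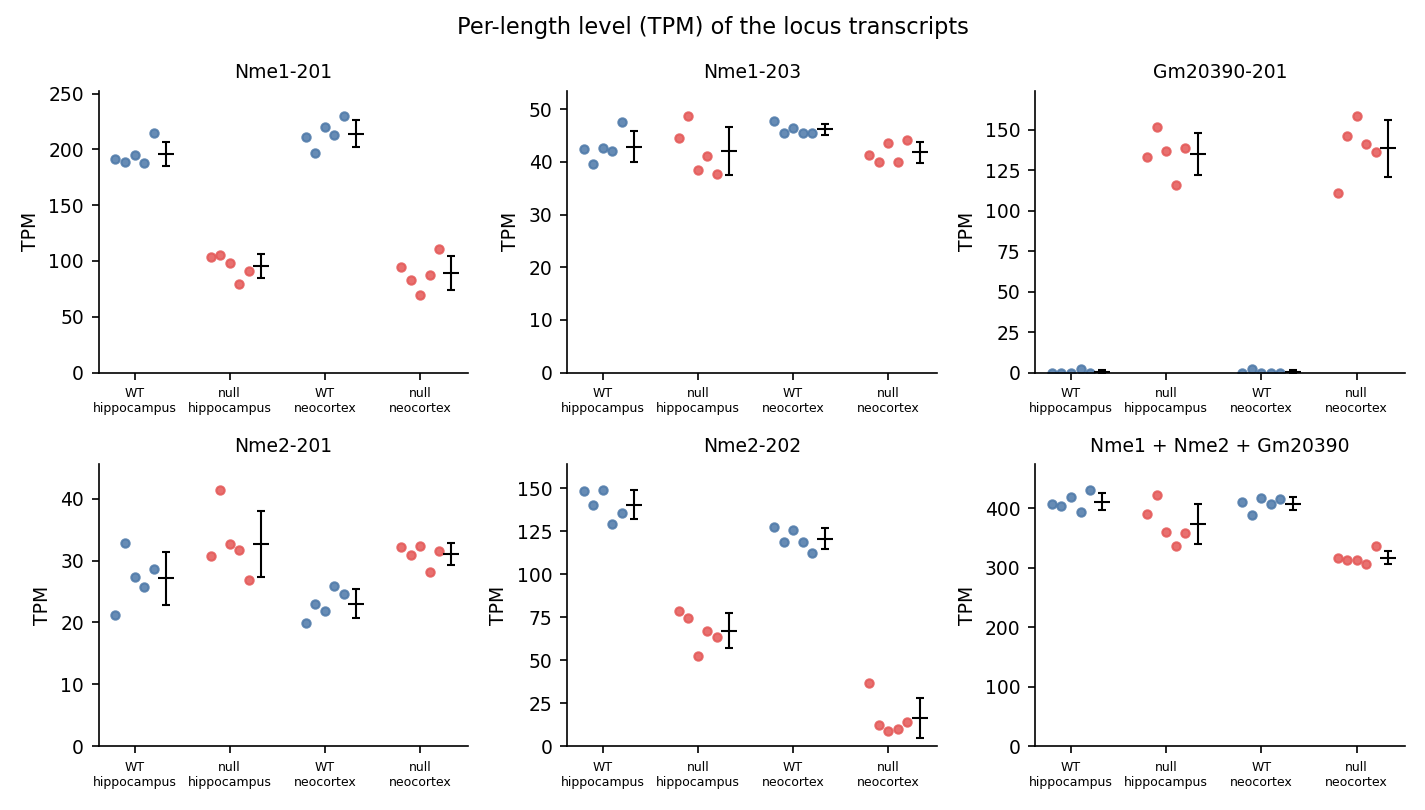
Level in TPM of the locus transcripts in the 20 samples. Points are samples (blue WT, red miR-324-null) and black bars the mean ± SD of 5 samples; Gm20390-201 is at 0 in 8 of the 10 WT samples and between 111 and 158 TPM in all miR-324-null samples, while Nme1-201 and Nme2-202 are lower in every miR-324-null sample than in any WT sample of the same tissue.

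Because reads from shared sequence can pass between the 3 genes, their sum was followed as well. The summed level in hippocampus was 185, 173, 179, 165 and 191 CPM in WT mice and 219, 242, 187, 181 and 190 CPM in miR-324-null mice. The 2 highest values belonged to miR-324-null replicates 1 and 2, and the other 3 miR-324-null samples lay within the WT range (log2 fold change 0.19, SE 0.08). In neocortex the sum was 174, 181, 171, 173 and 184 CPM in WT mice and 180, 173, 178, 166 and 184 CPM in miR-324-null mice. The neocortical ranges overlapped almost wholly, with a log2 fold change of 0.0047 (SE 0.042).

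In CPM, Gm20390 was higher by 67.2 in miR-324-null hippocampus, while Nme1 differed by -20.3 and Nme2 by -21.8, a net difference of 25.1 CPM. In neocortex Gm20390 was higher by 65.3 CPM, Nme1 differed by -34.3 and Nme2 by -31.1, a net difference of -0.225 CPM. In the neocortex the 3 differences thus nearly cancelled on the count scale.

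The per-length scale gave another sum. Summed TPM was 410 ± 14.5 in WT hippocampus and 373 ± 33.2 in miR-324-null hippocampus, with overlapping groups. It was 408 ± 11.6 in WT neocortex and 317 ± 11.4 in miR-324-null neocortex (SD, n = 5), where the ranges, 388 to 417 and 307 to 336 TPM, did not overlap. The short Nme1-201 has an effective length of 294 bases and Gm20390-201 one of 792, so a read counted for the former stands for more transcripts than a read counted for the latter. When transcript length entered the fit as an offset, the log2 fold change of the sum was -0.14 in hippocampus and -0.41 in neocortex, that of Nme1 -0.81 and -1.05, and that of Nme2 -0.75 and -1.65, respectively. The direction of the summed hippocampal difference therefore depended on the scale, while Nme1 and Nme2 were lower on both, and in hippocampus Nme1 was lower by less than Nme2 on the count scale alone.

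As shares of the summed estimated counts, Gm20390 took 33.1% ± 2.39 in miR-324-null hippocampus and 37.2% ± 4.14 in miR-324-null neocortex, against 0% to 0.572% and 0% to 0.658% in the WT groups. Nme1 had 65.6% ± 2.003 in WT hippocampus and 47.6% ± 1.27 in that of miR-324-null mice, and 70.7% ± 0.764 and 51.2% ± 2.18 in neocortex. Nme2 had 34.3% ± 2.09 and 19.3% ± 1.21 in hippocampus, and 29.2% ± 0.620 and 11.5% ± 2.56 in neocortex (SD, n = 5). Shares of both annotated genes were smaller in every miR-324-null sample than in any WT sample of the tissue.

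**Figure D3:**
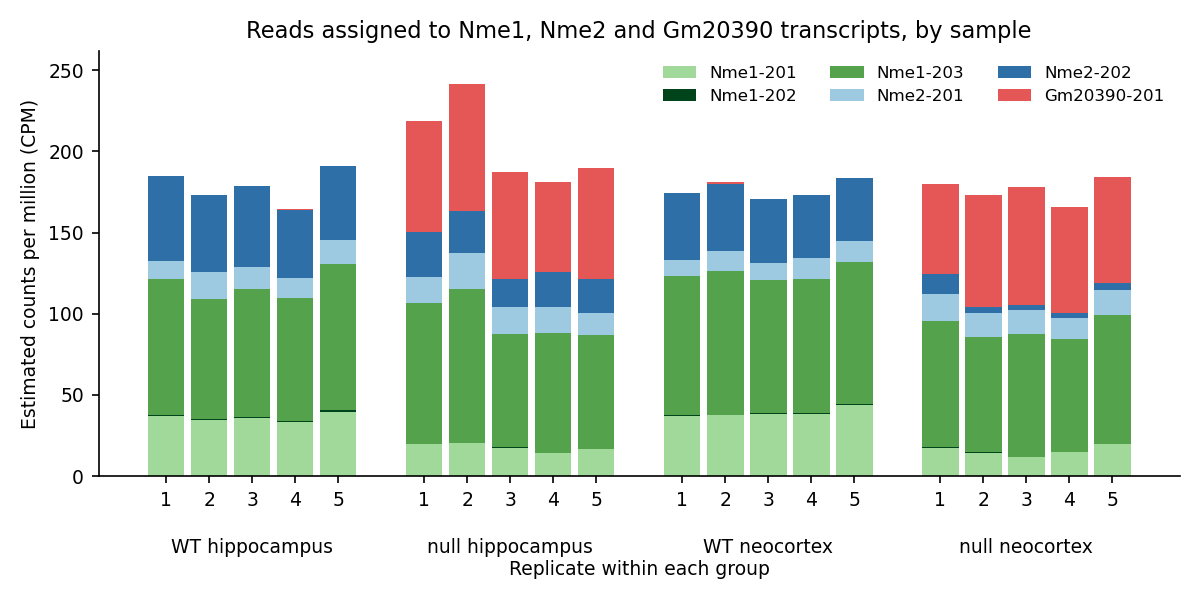
Estimated counts on the CPM scale (vertical axis) assigned to the 6 transcripts of Nme1, Nme2 and Gm20390, stacked for each of the 20 samples. The Gm20390-201 segment (red) is close to absent in WT samples and 55.3 to 78.4 CPM tall in miR-324-null samples, while the total height in the neocortex is 171 to 184 CPM in WT mice and 166 to 184 CPM in miR-324-null mice.

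Per length, the means of Nme3, Nme5, Nme7, Nme6 and Nme4 followed each other in this order in all 4 groups, and the places of the locus genes differed. In WT hippocampus the means ran from Nme1 (242 TPM) through Nme2 (168), Nme3 (45.9), Nme5 (20.4), Nme7 (20.2), Nme6 (9.54) and Nme4 (3.98) to Gm20390 (0.396 TPM). Neighbours in this order had separate ranges over samples except Nme5 and Nme7. In WT neocortex Nme1 stood at 263 TPM, Nme2 at 144 TPM and Nme3 at 39.4 TPM. In miR-324-null hippocampus Nme1 (138 TPM), Gm20390 (135 TPM) and Nme2 (99.9 TPM) followed each other with overlapping ranges. In miR-324-null neocortex Gm20390 (139 TPM) and Nme1 (131 TPM) overlapped, and Nme2 (47.2 TPM) overlapped Nme3 (42.5 TPM). Summed over the 8 members, the family had 511 ± 23.2 TPM in WT mice and 475 ± 38.8 TPM in miR-324-null hippocampus, and 501 ± 12.5 and 414 ± 9.70 TPM in neocortex (SD, n = 5).

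Nme3, the gene of the mitochondrial outer membrane member (chr17:24896500-24897522, plus strand), had 12.4, 13.4, 13.0, 9.99 and 12.7 CPM in WT hippocampus and 13.6, 15.9, 12.1, 11.7 and 12.9 CPM in miR-324-null hippocampus. In neocortex it had 10.9 ± 0.416 CPM in WT mice and 11.1 ± 0.911 CPM in miR-324-null mice (SD, n = 5). Genotype groups overlapped in both tissues, with log2 fold changes of 0.10 and 0.03. Nme3 overlaps Mrps34, a mitochondrial ribosomal protein gene, on the same strand, and shares 733 of its 934 31-base words with it, so reads from the shared stretch may have been divided between these genes. Its coding transcript, Nme3-201, had the highest mean of its 5 transcripts, 28.3 TPM over all samples.

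Nme4, whose product is imported into mitochondria (chr17:26091734-26095602, minus strand), was the rarest member in WT samples other than Gm20390, by the 2 of its 7 annotated transcripts that the data held. It had 1.80 ± 0.347 CPM in WT mice and 2.31 ± 0.671 CPM in miR-324-null hippocampus, and 1.86 ± 0.172 and 1.92 ± 0.438 CPM in neocortex (SD, n = 5). The groups overlapped in both tissues (log2 fold changes 0.35 and 0.04). Nme6, a further divergent member (chr9:109832749-109843116, plus strand), had 3.61 ± 0.489 and 3.41 ± 0.258 CPM in WT mice and miR-324-null hippocampus and 3.46 ± 0.558 and 3.24 ± 0.579 CPM in neocortex, with log2 fold changes of -0.08 and -0.09 and overlapping groups. Its reads were spread over 15 annotated transcripts.

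The cilia-associated members were similar across genotypes too. Nme5 (chr18:34562634-34579115, minus strand) had 6.40 ± 0.828 and 6.74 ± 0.846 CPM in WT mice and miR-324-null hippocampus, and 6.51 ± 0.525 and 6.35 ± 0.429 CPM in neocortex (log2 fold changes 0.07 and -0.03). Nme7 (chr1:164304121-164437725, plus strand) had 13.6 ± 0.843 and 13.1 ± 0.945 CPM in hippocampus, and 13.2 ± 0.513 and 14.0 ± 2.02 CPM in neocortex (log2 fold changes -0.05 and 0.09; SD, n = 5). The groups overlapped for both genes in both tissues. The 8 markers of ciliated ependymal cells fixed for comparison, led by Foxj1 and Ccdc39, summed to 23.1 to 62.8 CPM in WT hippocampus, 27.9 to 53.4 in miR-324-null hippocampus, 24.1 to 28.1 in WT neocortex and 22.8 to 35.0 in miR-324-null neocortex. Ccdc39 alone averaged 16.3 CPM in WT hippocampus, 17.9 in miR-324-null hippocampus, 16.6 in WT neocortex and 18.2 in miR-324-null neocortex. Every other marker of the list had a lower mean in neocortex than in hippocampus in both genotypes, though none was higher in all hippocampus samples. The part of these cells in the level of Nme5 and Nme7 was not tested.

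**Figure D4:**
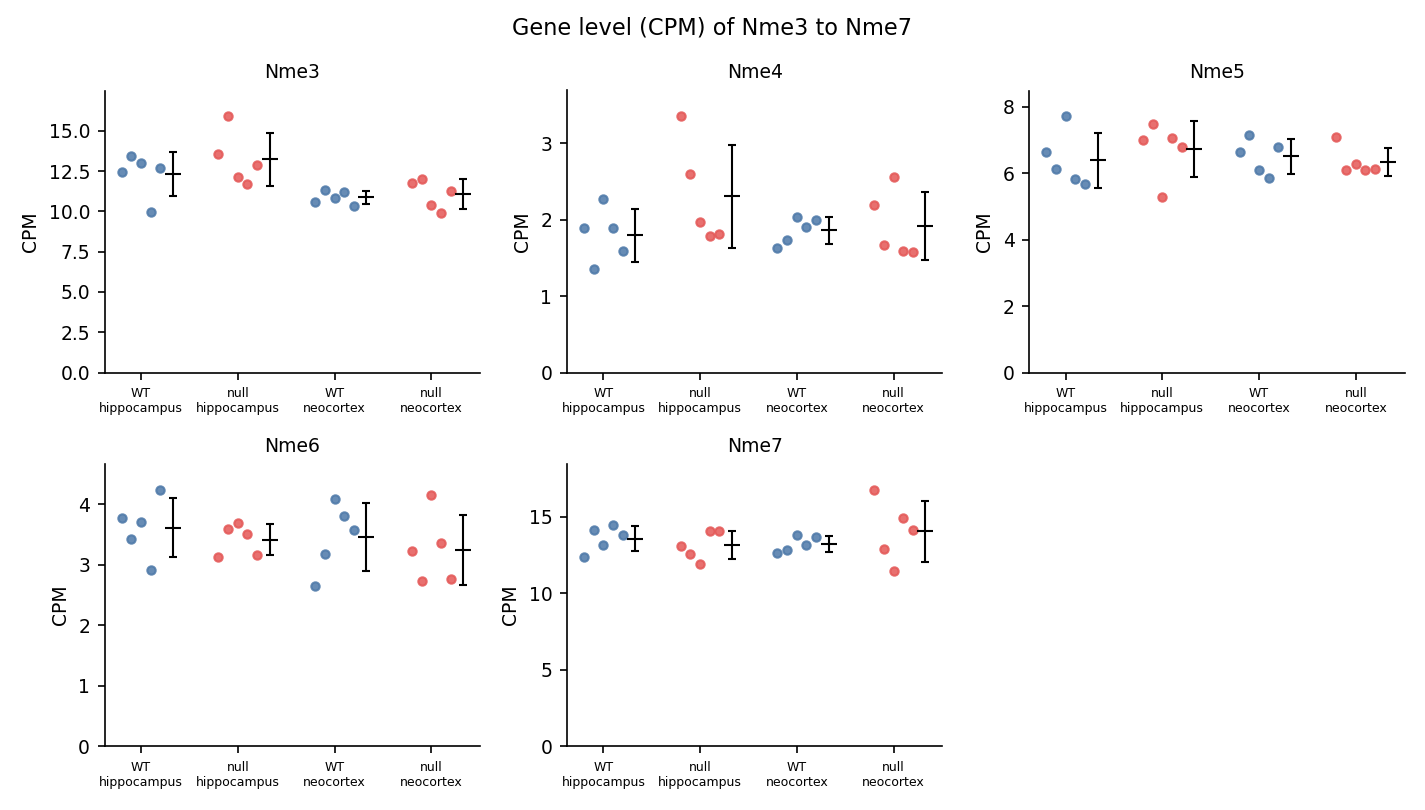
Gene level in CPM of Nme3, Nme4, Nme5, Nme6 and Nme7 in the 4 groups. Points are samples (blue WT, red miR-324-null) and black bars the mean ± SD of 5 samples; within each tissue the WT and miR-324-null points overlap for all 5 genes.

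The tissue comparison asked whether the family differs between the neocortex and the hippocampus, and was fitted within each genotype. In WT mice Nme2 was the only one of 7 tested members that passed, and it was lower in neocortex (61.2 ± 4.15 CPM in hippocampus and 51.6 ± 1.26 CPM in neocortex; SD, n = 5). Its log2 fold change was -0.25 (SE 0.05, adjusted p value 0.00186, edgeR), and all 5 neocortex samples lay below all 5 hippocampus samples. Over all genes 36.1% of 14894 were called in this comparison, against 1 of 7 members. Nme2 did not pass when all 20 samples shared a single fit (adjusted p value 0.0974), and gave 0.000208 to 0.00629 with single samples left out. In bulk tissue, fewer cells of a type and less RNA per cell cannot be told apart.

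The other WT values missed the threshold. Nme1 had a log2 fold change of 0.09 (adjusted p value 0.212) and Nme3 one of -0.18 (0.115), the latter passing without WT hippocampus replicate 4 (0.0148). Nme4 (0.05), Nme5 (0.02), Nme6 (-0.06) and Nme7 (-0.04) had adjusted p values of 0.716 to 0.903. The sum of Nme1, Nme2 and Gm20390 had a log2 fold change of -0.02 (adjusted p value 0.816). Mrps34, which overlaps Nme3, was lower in WT neocortex, with a log2 fold change of -0.29 (adjusted p value 0.00692).

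In miR-324-null mice Nme2 was again the only member that passed, 1 of 8 beside 27.4% of 15033 genes. Its level was 39.4 ± 6.33 CPM in hippocampus and 20.4 ± 4.92 CPM in neocortex (SD, n = 5), a log2 fold change of -0.96 (SE 0.15, adjusted p value 0.000442, edgeR). All neocortex samples lay below all hippocampus samples. Whether this difference is larger than that in WT was not tested, because the genotype contrast chose the gene.

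Gm20390, which could be compared between tissues in miR-324-null mice, did not pass, with a log2 fold change of -0.05 (adjusted p value 0.737). Nme1 had -0.11 (0.401) and the sum of the 3 genes -0.22 (0.0624); the sum passed with DESeq2 (0.0437), with the length offset (0.0170), with both (0.00326), with all 20 samples in a single fit (0.0183) and without miR-324-null hippocampus replicate 3 (0.0490) or 4 (0.0385). Nme3 had -0.26 (0.0644) and passed with all 20 samples in a single fit (0.0331). It also passed without miR-324-null hippocampus replicate 4 (0.0490) and with the replicate number as a block. Mrps34 was lower in neocortex at -0.42 (0.00862). Nme4, Nme5, Nme6 and Nme7 had log2 fold changes of -0.27, -0.09, -0.09 and 0.08, with adjusted p values of 0.413 to 0.716.

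**Figure D5:**
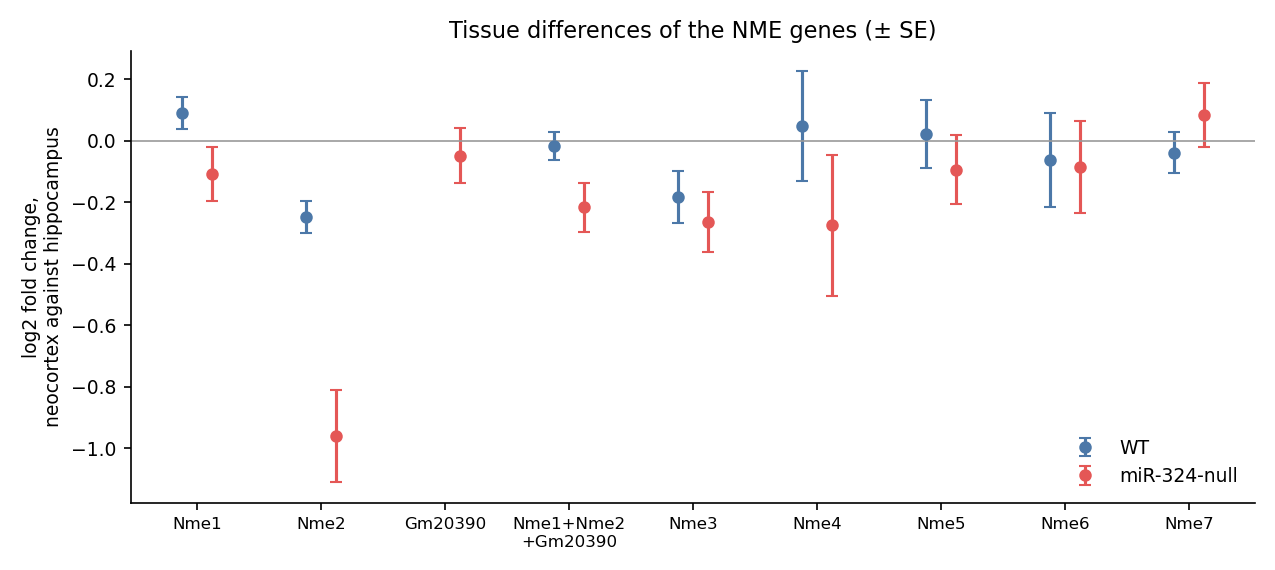
Log2 fold change (vertical axis, neocortex against hippocampus, ± SE) of the NME genes and of the sum of Nme1, Nme2 and Gm20390, fitted in WT (blue) and miR-324-null (red) samples; negative values are lower in neocortex, and Gm20390 was not tested in WT. Nme2 is the gene past the threshold in each genotype, at -0.25 and -0.96.

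Genes that supply or use the same nucleotide pools were counted from a list of 41 genes other than the members, 38 of which had enough counts to be tested. None passed between the genotypes, 0 of 38 in hippocampus and 0 of 38 in neocortex. At an unadjusted edgeR p of at most 0.05 stood 1 of the 38 in hippocampus and 4 in neocortex. Of all genes, 1635 of 14796 in hippocampus and 1822 of 14930 in neocortex stood at that level. DESeq2, which called 139 and 240 genes over the whole table, also called 0 of the 38 in each tissue. Over all genes edgeR called 0.115% of 14796 in hippocampus and 0.315% of 14930 in neocortex at an adjusted p value of at most 0.05; the 47 neocortical calls were 566 without miR-324-null replicate 5. Their median log2 fold change was 0.05 in hippocampus and 0.01 in neocortex, against 0.0012 and 0.0046 over all genes. The untested genes were Ak9 and the remaining family members Nme8 and Nme9, which had at most 4 and 11 estimated counts in any sample.

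Between the tissues of WT mice 16 of the 38 genes passed, 8 higher and 8 lower in neocortex (42.1%, beside 36.1% of all genes). They comprised 5 of 12 nucleoside monophosphate kinases, 3 of 8 nucleoside kinases, 2 of 9 genes of nucleotide conversion and turnover and 6 of 9 genes of de novo synthesis. Among those that passed, the largest differences were those of Adssl1, an adenylosuccinate synthase of AMP synthesis, at 11.4 CPM in hippocampus and 20.5 CPM in neocortex (log2 fold change 0.84, adjusted p value 0.000103), and of the adenylate kinase gene Ak5, at 252 and 144 CPM (-0.81, 1.8e-06). Ak4, a mitochondrial adenylate kinase gene, was lower in neocortex (73.2 and 46.2 CPM, -0.66, adjusted p value 9.5e-05), as was Dguok, which encodes mitochondrial deoxyguanosine kinase (12.5 and 9.70 CPM, -0.37, 0.00109). Impdh1, of the rate-limiting step to GMP (39.2 and 54.6 CPM, 0.48, adjusted p value 1.2e-05), and Dck, deoxycytidine kinase (16.3 and 20.97 CPM, 0.36, 0.00128), were higher in neocortex. In miR-324-null mice 11 of the 38 passed, 3 higher and 8 lower in neocortex (28.9%, beside 27.4% of all genes); DESeq2 called 14, and 4376 of all 15033 genes, and the length offset left 9, and 3324 of all genes.

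The genes beside the locus were also read off, as a description. Of the 4 genes tested within 100 kb, Utp18, a gene of ribosomal RNA processing at chr11:93859243-93885766, had 13.3 to 15.9 CPM in WT mice and 20.9 to 23.3 CPM in miR-324-null hippocampus. In neocortex it had 14.3 to 16.5 CPM in WT mice and 20.9 to 23.3 CPM in miR-324-null mice, so that the groups were apart in both tissues (log2 fold changes 0.59 and 0.58). Mbtd1 had log2 fold changes of -0.18 and -0.30, with overlapping groups in hippocampus and separate groups in neocortex (22.8 to 26.7 CPM in WT mice, 18.7 to 22.2 CPM in the miR-324-null group). Spag9 had -0.13 and -0.08 and the pseudogene Gm11518 0.20 and 0.05, with overlapping groups.

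The genes whose pattern over the 20 samples was most like that of each locus gene were found by the root mean square difference of centred log2 CPM, among 15390 genes. For Nme1 the closest was Cisd3 (0.106), and for Nme2 they were Phb (0.357), Mrpl27 (0.365) and Gm20594 (0.387). Those of Gm20390 were the pseudogenes Gm7666 (1.83), Gm10259 (1.84) and Gm6969 (1.84). The genes' own root mean square deviations from their means were 0.221 for Nme1, 0.629 for Nme2 and 3.40 for Gm20390, to which these differences scale. Cisd3, Phb and Mrpl27 are on chromosome 11, as is the locus, and Gm20594 and the 3 pseudogenes are on other chromosomes.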

How the data were processed

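Hippocampal and neocortical RNA of 20 samples was extracted with mirVana, and stranded, poly(A)-selected TruSeq libraries were sequenced on a NextSeq 500. The authors assigned reads with kallisto to mouse GRCm38 transcripts of Ensembl release 92 and deposited, for each transcript and sample, an estimated count and a TPM value, the latter normalized to effective length and depth before deposition. The kallisto version and its use of strand are not given in the sources used here. The build listed in the labels was a human build, whereas all transcript identifiers were those of mouse.

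Of 115270 transcripts, 113580 matched GENCODE M21 (GRCm38) and were summed into 35580 genes; the 1690 unmatched held at most 0.556% of the counts of a sample. For Nme4, 2 of 7 annotated transcripts were in the data. Summed estimated counts were rounded. CPM used TMM factors over the 20 samples. Genes that passed filterByExpr were fitted with edgeR 4.0.16 (quasi-likelihood, TMM, two-sided), within each tissue for genotype and within each genotype for tissue, with Benjamini-Hochberg adjustment over all genes and a threshold of 0.05. The sum of Nme1, Nme2 and Gm20390 replaced the 3 genes in a fit of its own. DESeq2 1.42.0, other size factors, filters, a length offset, a joint fit of all samples, the replicate number as a block and omission of each sample were alternatives. Fits were tested on simulated data with known changes. A floor of 3 counts and a pseudocount of 0.5 CPM (for likeness only) were used. Any pair of replicates of a group differed in at least 19241 genes, so none was a copy of another. A library sequenced again would also differ, so repeated libraries were not tested for. Sequence words of 31 bases were counted over the M21 transcripts that were also in the data. The floor covers counting error only.

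The named genes were the 8 members, all transcripts of the locus, tested neighbours within 100 kb, the 3 genes most like each locus gene (some are not reported here), and, of 41 nucleotide metabolism genes, any called between genotypes and at most the 6 largest called differences between WT tissues. The members, lists and comparisons were chosen with earlier results of these data known. Genotype p-values of the members were not used.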

Additional observations from a re-analysis of the deposited data

Results flagged for a closer look

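In 4 of the 36 groups of 5 samples examined for the 8 members and the sum of Nme1, Nme2 and Gm20390, the highest sample lay apart from the others by more than Dixon's 95% critical value of 0.71. Chance does this in about 1 in 20 groups, a rate that does not apply to the 2 WT groups of Gm20390, in which any single value above 0 lies apart. Nme2 in miR-324-null neocortex was at 28.9 CPM in replicate 1 and at 16.4 to 19.96 CPM in the other samples. Gm20390 was at 0.944 CPM in WT hippocampus replicate 4 and at 1.16 CPM in WT neocortex replicate 2, where the other WT samples of the same tissue were at 0. Nme5 in miR-324-null neocortex was at 7.10 CPM in replicate 1 and at 6.10 to 6.29 CPM in the others. Both high values in miR-324-null neocortex came from the same sample. The causes were not tested.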

How the results depend on the processing

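Most values kept their direction and their side of the threshold under the alternatives. In WT mice 1 member passed between the tissues, against 0 with all 20 samples in a single fit and 1 to 2 with single samples left out (2 without WT hippocampus replicate 4, when Nme3 passed). In miR-324-null mice 1 passed, against 2 with all 20 samples in a single fit and 1 to 2 with single samples left out (2 without miR-324-null hippocampus replicate 4, Nme3 again). The genotype log2 fold change of the sum in hippocampus reversed from 0.19 to -0.14 with a length offset in edgeR and -0.14 in DESeq2, and that in neocortex moved from 0.0047 to -0.41 in both; as ratios of mean TPM they were -0.14 and -0.36. By TPM, Nme1, Nme2 and Gm20390 held 37.0%, 26.7% and 36.2% of the sum in miR-324-null hippocampus and 41.3%, 14.9% and 43.8% in miR-324-null neocortex. The short effective length of Nme1-201 enters both scales by construction. With single samples left out, the log2 fold change of Gm20390 ranged from 8.25 to 12.9 in hippocampus and from 7.84 to 13.1 in neocortex, the largest without the WT sample above 0, and a minimum of 10 counts in every sample left Gm20390 untested. Over all genes, hippocampal genotype calls numbered 17, against 139 with DESeq2, 85 with DESeq2 and length, 83 with all samples in a single fit, 9 with that minimum and 4 with the replicate block. Neocortical calls numbered 47, against 240 with DESeq2, 184 with DESeq2 and length, 26 with that minimum, 30 with the length offset and 30 with the replicate block. With single samples left out they numbered 10 to 31 in hippocampus and 27 to 566 in neocortex, the 566 without miR-324-null replicate 5.

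The replicate numbers were not taken as pairs, since some hippocampus and neocortex samples with the same number had negative correlations, although pairing was not excluded. Between the genotypes, where samples with the same number were different mice, the correlations ran from -0.214 to 0.154. There 1 of 5 samples was closest to its own number in each tissue. Between the tissues of WT mice the range was -0.118 to 0.104, with 2 of 5 closest. Between those of miR-324-null mice it was -0.0126 to 0.204, with 3 of 5 closest. With the replicate block, 2 members passed between tissues in miR-324-null mice (Nme3 at an adjusted p value of 0.0383 in edgeR) and Nme2 passed in WT mice (0.0067). Of the 36 transcripts of Nme3 to Nme7, 27 were at 0 in some sample; the parts of depth and of sequence shared between isoforms in this were not tested.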
